A study of Mus musculus with 23 samples.

Results

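The chemokine receptor gene Ccr2, the chemokine genes Ccl2, Ccl7, Ccl8 and Ccl12, and the monocyte genes Cx3cr1, Plac8 and Treml4 were described in lungs of cystic fibrosis (CF) and control mice. These 8 genes, of 18193 genes with an unambiguous probe set, were read by 12 of the 45037 probe sets of the array. They were chosen as probe sets whose annotation held 1 symbol among these names, and some were chosen on the size of their CF minus control difference on these same arrays. The CF effects of the 8 genes are therefore given as a description with no test.

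Whole right lungs of Mus musculus gave the total RNA, which was labelled with biotin and hybridised to 23 arrays. The mice were male or female, of the strain C57BL/6 (B6 below) or BALB/c (BALB below), and of the genotype CF-/- or CF+/+. CF-/- lungs are called CF and CF+/+ lungs control. Each combination of strain, sex and genotype had 3 arrays, except B6 CF males with 2. The sources used here give neither the targeted allele nor the age, diet or housing of the mice, nor whether each array stands for its own mouse. The p-values below measure only the spread between these arrays. A value is the deposited signal of a probe set on the log2 scale, so a difference of 1 is a doubling. All differences and standard errors (SE) below come from 1 limma fit of the 8 group means, with Benjamini-Hochberg adjustment over all probe sets and a threshold of 0.05.

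Monocytes leave the bone marrow by way of the receptor CCR2, which binds the chemokines CCL2, CCL7 and CCL12, and enter inflamed tissue where these are made. Classical monocytes carry much CCR2, whereas non-classical monocytes, which patrol the vessel wall, carry much CX3CR1, the receptor of fractalkine (Cx3cl1). Mouse CCL8 lies in the same gene cluster and is known mainly as a ligand of CCR8. The lung holds a large pool of intravascular monocytes beside its alveolar and interstitial macrophages. In whole lung, fewer cells of a type and less RNA per cell cannot be told apart.

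The genotype was checked on Cftr, the gene mutated in CF. In BALB it read 5.66 on average in controls and 3.99 in CF, a difference of -1.67 (SE 0.13, adjusted p = 6.44e-07). In B6 it read 4.28 in controls and 4.06 in CF, a difference that did not pass (-0.22, adjusted p = 0.43). Array medians lay between 4.56 and 4.64, and the number of arrays limits the precision. Transcripts of other tissues were present in some pieces of lung. Per array, a score was the mean, over a tissue's listed genes, of the distance from each gene's median. Gut genes scored 1.20 to 1.81 in 4 BALB control arrays (females 1 and 3, males 1 and 2) and 1.32 in B6 control female 1. Squamous epithelium genes scored 1.64 to 3.14 in the 3 BALB CF females and 3.13 in B6 control male 3. Results are given also without the 4 gut-bearing BALB controls or with the tissue scores as covariates where these changed a call or moved a value by over 1.5 times. The 3 BALB CF females are a whole group, so results without them are those of the BALB males. The 11 genes of lung cell identity, among them the surfactant gene Sftpc, summed to 15.47 to 15.58 on the log2 scale over all arrays. Of these 0 passed in B6 (1 at an unadjusted p under 0.05 in limma), and Foxj1, a gene of ciliated cells, was lower in BALB CF (-0.38, adjusted p = 0.0286).

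Ccr2, the CCL2 receptor, was read highest by the probe set 1421186_at. In B6 controls the signal was 5.74, 6.54 and 6.59 in females and 5.90, 6.17 and 6.03 in males. In B6 CF lungs it was 6.39, 6.42 and 7.12 in females and 6.74 and 6.51 in males. The B6 groups overlapped, because females 2 and 3 of the controls reached the level of most CF lungs. In BALB controls Ccr2 read 5.90, 5.76 and 5.65 in females and 4.67, 4.98 and 5.42 in males. In BALB CF lungs it read 6.49, 6.82 and 6.61 in females and 6.56, 6.67 and 6.68 in males. Every BALB CF lung was thus above every BALB control lung, and the lowest values of all arrays were those of BALB control males. The CF minus control difference was 0.47 (SE 0.16) in B6 and 1.24 (SE 0.15) in BALB. Without the 4 gut-bearing controls the BALB difference in Ccr2 was 1.05, and with tissue scores as covariates 0.93. The CF lungs of the strains lay at the same mean, 6.64 ± 0.30 (SD, n = 5) in B6 and 6.64 ± 0.11 (SD, n = 6) in BALB. The control means differed, at 6.16 ± 0.34 (SD, n = 6) in B6 and 5.40 ± 0.48 (SD, n = 6) in BALB.

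**Figure D1:**
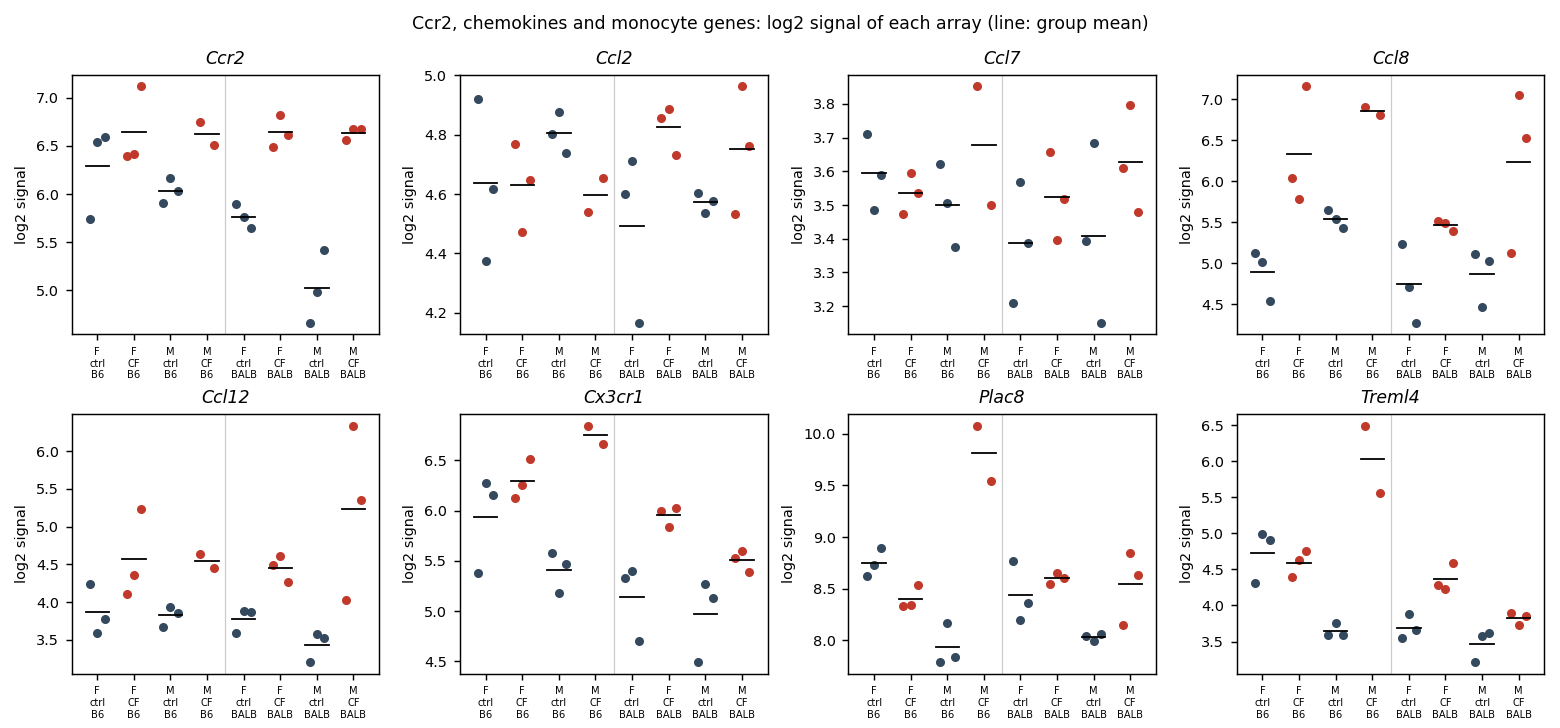
Log2 signal of the 8 genes on each array (1 point per array, blue control, red CF, line at the group mean), by sex (F, M) and genotype within B6 on the left and BALB on the right of each panel, with a vertical axis of its own per gene. Ccr2 in BALB CF lungs lay at 6.49 to 6.82, above all BALB controls, and Plac8 and Treml4 were highest in the 2 B6 CF males.

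The strain difference of Ccr2 in control lungs passed the threshold. It shares the control arrays with the CF effects on which some genes were chosen, so its p-value is not independent of the choice. Ccr2 was 0.77 lower in BALB than in B6 controls, a difference of -0.77 (SE 0.15, adjusted p = 0.000642). With the tissue scores as covariates the difference was -0.46 and did not pass (limma, adjusted p = 0.371). Without the 4 BALB controls that carried gut transcripts it was -0.57. With only BALB control female 2 and male 3 left of that group, calls of this fit are weak wherever they are given. Gut content and the BALB control group cannot be told apart here, and fewer arrays also give less precision. Over these and the other alternatives, leave-one-out included, the difference stayed below 0.

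Ccr2 has 3 further probe sets, and they did not behave alike. The pair 1421187_at and 1421188_at followed the first closely, with r of 0.93 and 0.91 over the 23 arrays after each strain mean was subtracted. The probe set 1460067_at followed the first with r = 0.58 only. These correlations describe arrays that share libraries and groups. CF minus control in BALB was 1.83 for 1421187_at, 0.79 for 1421188_at and 0.13 (SE 0.08) for 1460067_at. In B6 these differences were 0.40, 0.15 and 0.24 in the same order. The larger response in BALB was thus seen in 3 of the 4 probe sets and not in 1460067_at. The strain difference in controls passed for 1421187_at (-1.13, adjusted p = 1.52e-05) and 1421188_at (-0.53, adjusted p = 4.27e-06). For 1460067_at it was 0.01 (adjusted p = 0.972). The first 3 probe sets were designed from 1 source sequence and 1460067_at from another, per the platform annotation. Which transcript ends or strain variants each probe set reads was not tested.

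**Figure D2:**
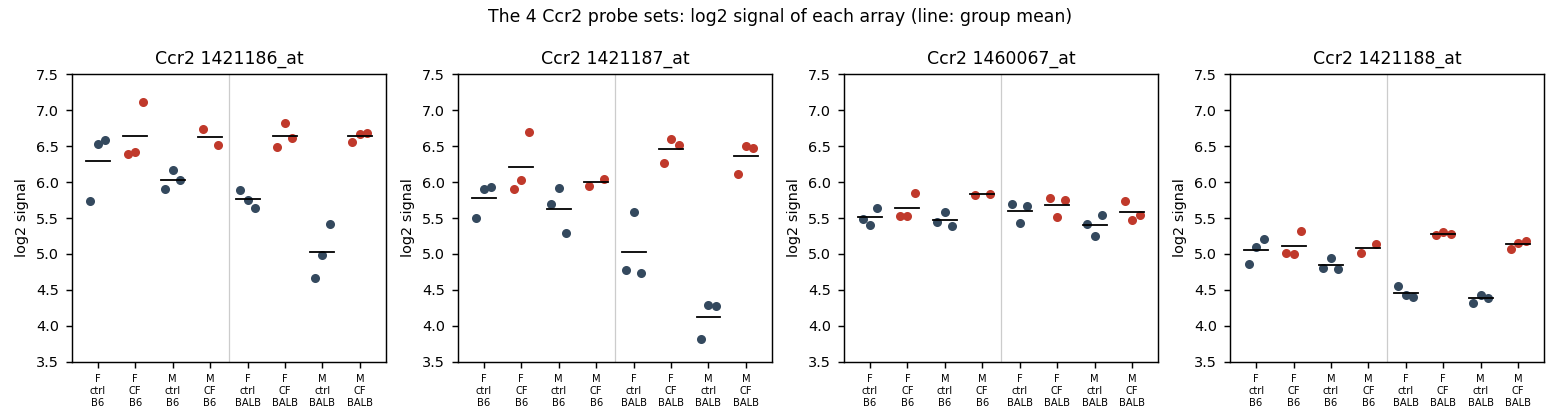
Log2 signal of the 4 Ccr2 probe sets on each array (blue control, red CF, line at the group mean, 1 shared vertical axis), B6 groups left and BALB groups right of the grey line in each panel. The group means of the BALB controls fall below those of all other groups in 3 probe sets, while in 1460067_at all groups lie close together.

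Ccl2 and Ccl7, the CCR2 ligands best known in monocyte recruitment, showed little difference. Ccl2 signals ranged from 4.17 to 4.96 over all arrays, and the CF minus control difference was -0.11 (SE 0.10) in B6 and 0.26 (SE 0.10) in BALB. The BALB difference in Ccl2 was 0.14 without the 4 gut-bearing controls. Ccl7 was among the dim probe sets, with a mean of 3.53 where the median over all probe sets was 4.59. Its CF minus control difference was 0.06 (SE 0.10) in B6 and 0.18 (SE 0.09) in BALB, where it was 0.11 without control male 3 and 0.30 with tissue scores as covariates. CF and control arrays of both genes overlapped in both strains.

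Ccl8 and Ccl12, the other chemokine genes among the 8, were the ones that stood higher in CF lungs. On chromosome 11 the genes follow each other in the order Ccl2, Ccl7, Ccl11, Ccl12, Ccl8 and Ccl1. The 250 bases before the start of Ccl12 (chr11:82101595-82101844, plus strand) and Ccl8 (chr11:82114935-82115184, plus strand) are shown because these neighbours moved together on the arrays. They are from RefSeq, build GRCm38.p6, with 3 words of 8 bases that both promoters hold at near the same distance from the start in capitals:

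Ccl12: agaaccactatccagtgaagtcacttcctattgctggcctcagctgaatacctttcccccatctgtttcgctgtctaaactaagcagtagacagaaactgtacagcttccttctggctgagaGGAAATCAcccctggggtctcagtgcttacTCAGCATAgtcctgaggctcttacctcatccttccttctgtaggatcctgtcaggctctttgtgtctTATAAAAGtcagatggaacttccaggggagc

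Ccl8: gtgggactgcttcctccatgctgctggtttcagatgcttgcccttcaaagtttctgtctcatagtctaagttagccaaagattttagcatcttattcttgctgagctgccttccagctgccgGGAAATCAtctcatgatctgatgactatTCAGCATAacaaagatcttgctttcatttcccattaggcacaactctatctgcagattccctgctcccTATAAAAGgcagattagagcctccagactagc

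The word GGAAATCA begins 128 bases before the start in both genes. The word TCAGCATA begins 98 bases before in Ccl12 and 100 bases before in Ccl8, and TATAAAAG begins 31 and 32 bases before. The TATA box letters TATAAA were found on either strand in 12.3% of 32536 mouse promoter windows of that length. Neither promoter held, on either strand, the letters TTCNNNGAA (the gamma-activated sequence, in 7.04% of windows), TGANTCA (AP-1, in 6.73%) or CCAAT (in 33.8%). Nor did they hold a match to the interferon-stimulated element (2.98% of windows) or the NF-kappaB motif (3.87%) as searched. A word match is a description of letters and not a bound site. Of the 8 genes 6 had a promoter window in the table, and Ccl2 and Ccl7 had no match.

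Ccl8 was higher in CF lungs of both strains. In B6 controls it read 5.13, 5.02 and 4.54 in females and 5.65, 5.54 and 5.42 in males. In B6 CF lungs it read 6.04, 5.79 and 7.15 in females and 6.91 and 6.80 in males. Every B6 CF array lay above every B6 control array. In BALB controls Ccl8 read 5.24, 4.71 and 4.27 in females and 5.11, 4.46 and 5.03 in males. In BALB CF lungs it read 5.52, 5.49 and 5.39 in females and 5.12, 7.05 and 6.52 in males. The BALB CF females formed a narrow band just above the controls, and CF male 1 lay among the controls while males 2 and 3 lay far above. The CF minus control difference was 1.38 (SE 0.27) in B6 and 1.05 (SE 0.26) in BALB.

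Ccl12, a CCR2 ligand of mice, was dimmer. In B6 it read 3.59 to 4.24 in the controls, 4.11, 4.36 and 5.23 in CF females, and 4.64 and 4.45 in CF males. The groups overlapped in B6 by CF female 1 and control female 1. In BALB it read 3.21 to 3.88 in the controls, 4.49, 4.62 and 4.27 in CF females, and 4.02, 6.34 and 5.36 in CF males. Every BALB CF array lay above every BALB control array. The CF minus control difference was 0.71 (SE 0.27) in B6 and 1.24 (SE 0.25) in BALB.

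The arrays with most Ccl8 were those with most interferon-response transcripts. For Ccl12 this held in BALB CF males 2 and 3 and less so in the B6 CF males. The B6 CF males read Ccl12 at 4.64 and 4.45, near the BALB CF females at 4.49, 4.62 and 4.27. The summed signal of the 17 measured interferon-response genes, on the log2 scale, was 11.34 to 11.47 in B6 control females and 11.25 to 11.36 in B6 control males. It was 11.75, 11.49 and 11.99 in the 3 B6 CF females and 12.60 and 12.42 in the 2 B6 CF males. In BALB the CF males read 11.45, 13.16 and 12.72, so that male 1 was again apart from males 2 and 3. The remaining BALB groups lay between 10.97 and 11.65. Ccl8 and Ccl12 correlated with r = 0.75 over the 23 arrays after group means were subtracted. In B6 10 of the 17 interferon-response genes were higher in CF and 0 were lower, where 3.92% of all genes were higher. In BALB 7 of 17 were higher and 0 lower, where 2.87% of all genes were higher. These BALB counts are from the fit without tissue scores. At an unadjusted p under 0.05 in limma, 14 were higher and 0 lower in each strain. Of all genes, 11.5% in B6 and 8.92% in BALB were then higher. The part of this signature in the chemokine levels was not tested.

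**Figure D3:**
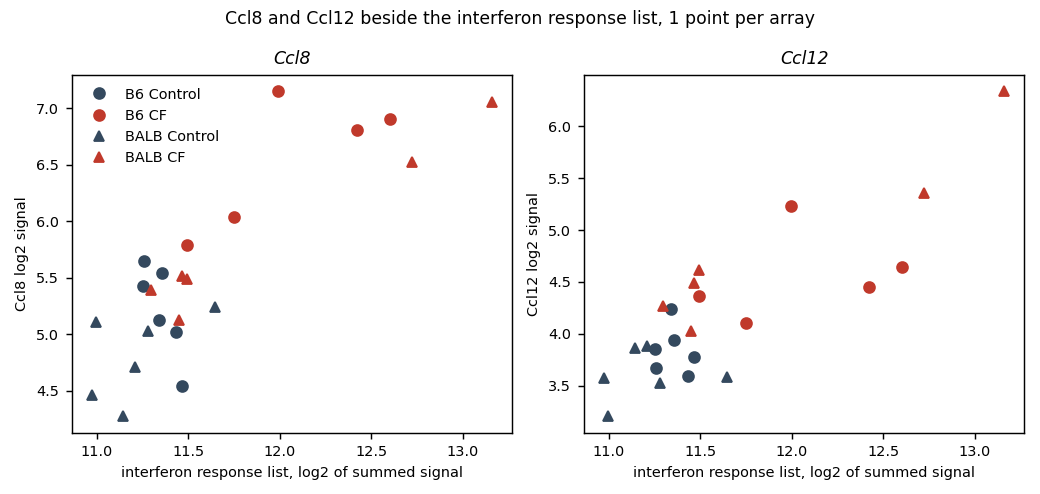
Ccl8 (left) and Ccl12 (right) log2 signal on the vertical axis against the log2 of the summed signal of the interferon-response list on the horizontal axis, 1 point per array (circles B6, triangles BALB, red CF, blue control). The BALB CF males at 13.16 and 12.72 had Ccl12 at 6.34 and 5.36, and the third BALB CF male lay at 11.45 with Ccl12 at 4.02.

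Cx3cr1, the fractalkine receptor gene, was read by the probe set 1450020_at. In B6 controls it read 5.38, 6.28 and 6.16 in females and 5.58, 5.18 and 5.47 in males. In B6 CF lungs it read 6.13, 6.25 and 6.51 in females and 6.84 and 6.66 in males. Control females 2 and 3 overlapped with the CF females, whereas the CF males lay above all control males. In BALB the controls read 5.33, 5.40 and 4.70 in females and 4.49, 5.27 and 5.13 in males. The BALB CF lungs read 6.00, 5.83 and 6.02 in females and 5.53, 5.59 and 5.39 in males. Within each sex the BALB CF arrays were above the controls, and CF male 3 was just below the highest control female. The CF minus control difference was 0.85 (SE 0.16) in B6 and 0.67 (SE 0.15) in BALB. The second probe set, 1450019_at, gave 0.58 and 0.44. The BALB difference in Cx3cr1 was 0.46 without the 4 gut-bearing controls and 0.23 with tissue scores as covariates. In BALB males it was 0.54, against 0.30 without control male 1 and -0.055 with the covariates, where its direction turned.

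Plac8, a leukocyte gene high in monocytes and neutrophils, was the brightest of the 8. In B6 controls it read 8.63, 8.73 and 8.89 in females and 7.79, 8.17 and 7.84 in males. In B6 CF lungs it read 8.33, 8.34 and 8.53 in females and 10.08 and 9.54 in males. The CF females lay below every control female, and the CF males above every other B6 array. In BALB the controls read 8.77, 8.19 and 8.36 in females and 8.04, 7.99 and 8.06 in males. The BALB CF lungs read 8.55, 8.65 and 8.61 in females and 8.15, 8.84 and 8.63 in males. The CF minus control difference in B6 was -0.35 (SE 0.16) in females and 1.88 (SE 0.18) in males, and in BALB it was 0.16 in females and 0.51 in males. The value in BALB females was 0.33 without control female 1, 0.041 without control female 2, 0.41 without the gut-bearing controls and 0.34 with tissue scores as covariates.

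Treml4, a receptor-like gene of non-classical monocytes and some dendritic cells, was dimmer and, like Plac8, highest in the B6 CF males. In BALB the larger CF minus control difference was in females for Treml4 and in males for Plac8. In B6 controls it read 4.31, 4.99 and 4.90 in females and 3.58, 3.76 and 3.60 in males. In B6 CF lungs it read 4.40, 4.62 and 4.76 in females and 6.49 and 5.56 in males. The CF females lay within the range of the control females, and both CF males lay above every other B6 array. The BALB values were 3.54, 3.88 and 3.66 in control females and 3.22, 3.57 and 3.62 in control males. They were 4.28, 4.23 and 4.59 in CF females and 3.89, 3.73 and 3.86 in CF males. In BALB the CF arrays lay above the controls of their own sex, by less than the B6 males. The CF minus control difference in B6 was -0.14 (SE 0.19) in females and 2.38 (SE 0.21) in males, and in BALB it was 0.67 in females and 0.35 in males. The value in B6 females lay between -0.35 and -0.015 when single arrays were left out. In BALB males it was 0.23 without control male 1, 0.20 without the gut-bearing controls and 0.081 with tissue scores as covariates.

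**Figure D4:**
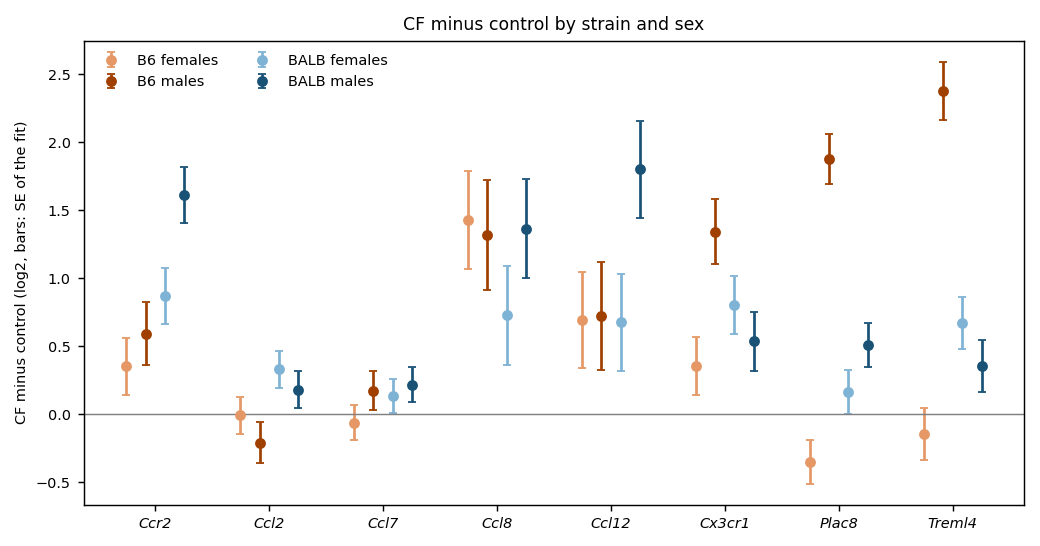
CF minus control difference (log2) of each of the 8 genes, by strain and sex, with bars of 1 SE from the fit of 8 group means. In B6, Plac8 and Treml4 lie near or below 0 in females and at 1.88 and 2.38 in males.

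The sex difference of the CF effect was tested in each strain. It shares its arrays with the CF effects on which some genes were chosen, and its p-values may not be independent of that choice. In B6 it passed for 2 of the 8 genes, Plac8 and Treml4, both with the smaller effect in females, where 1.75% of all probe sets passed and 1.07% with the smaller effect in females. The female minus male difference was -2.22 (SE 0.24, adjusted p = 0.000225) for Plac8 and -2.52 (SE 0.29, adjusted p = 0.000263) for Treml4. Both passed under each alternative that kept the probe set, although the B6 CF males were only 2 arrays. Cx3cr1 gave -0.98 (SE 0.32, adjusted p = 0.127) and did not pass, but it passed in 3 of the alternatives. It gave -1.26 (adjusted p = 0.0214) without B6 control female 1, -1.29 (adjusted p = 0.038) without that array and B6 control male 3, and -1.09 (adjusted p = 0.0451) with tissue scores as covariates. In B6 males, 6 of the 8 genes (all but Ccl2 and Ccl7) had both CF arrays above all control arrays, which 18.1% of all probe sets did. A choice of genes on their CF effects favours such a separation, so this count is only a description. Natural killer cell transcripts were also high in the B6 CF males. That list summed to 10.33 and 10.74 in them, to 9.50 to 10.38 in B6 CF females and to 8.68 to 9.41 in B6 controls. The part of other cell types in the sex difference was not tested.

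In BALB the sex difference of the CF effect passed for 0 of the 8 genes in limma, where 0.0178% of all probe sets passed. At an unadjusted p under 0.05 it passed for 2 genes, as it did for 9.6% of all probe sets. Their values were -0.74 (adjusted p = 0.425) for Ccr2 and -1.12 (adjusted p = 0.489) for Ccl12, both with the larger effect in males. Whether the sex difference itself differed between strains was not tested.

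Sex also divided the controls. Plac8 was higher in control females than in control males by 0.61 (SE 0.11, adjusted p = 0.00584), and Treml4 likewise by 0.66 (SE 0.13, adjusted p = 0.0112). These 2 of 8 genes compare with 2.43% of all probe sets, and 1.62% with the higher level in females. In B6 the control females lay above the control males on every array for these genes, as did 12% of all probe sets. Transcripts of other leukocytes divided the B6 controls too. The sums in females and males were 9.13 to 9.77 and 8.31 to 8.72 for B cells, and 8.89 to 9.41 and 8.68 to 8.73 for natural killer cells. Neutrophil transcripts went the other way, with 11.16 to 11.57 in females and 12.19 to 12.30 in males. Of the listed genes, 7 of 13 for B cells and 2 of 12 for natural killer cells were higher in control females over both strains, and 6 of 15 for neutrophils were lower. The part of these cells in the difference was not tested. For Ccr2 the female minus male difference of 0.50 did not pass (adjusted p = 0.074), but it passed without B6 control female 1 (0.64, adjusted p = 0.00805), without B6 CF female 3 (0.50, adjusted p = 0.0465) and without BALB control male 3 (0.60, adjusted p = 0.0284). Ccr2 passed as well without B6 control female 1 and male 3 together (0.64, adjusted p = 0.0182), with tissue scores as covariates (0.54, adjusted p = 0.0325) and with the replicate number as a block (0.50, adjusted p = 0.0491). Without B6 control female 1, Cx3cr1 also passed (0.49, adjusted p = 0.0442). Without the 4 gut-bearing BALB controls neither Plac8 (0.47, adjusted p = 0.223) nor Treml4 (0.67, adjusted p = 0.158) passed.

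The BALB minus B6 difference in controls was below 0 for all 8 genes and passed for 3, where 15.6% of all probe sets passed and 8.12% with the lower level in BALB. This comparison shares the control arrays with the CF effects on which some of the genes were chosen. A choice of genes with a large rise in BALB favours low BALB controls. Neither the common direction nor the calls are therefore independent of the choice. Beside Ccr2 these were Cx3cr1 (-0.62, SE 0.15, adjusted p = 0.00597) and Treml4 (-0.61, SE 0.13, adjusted p = 0.0026). The second Cx3cr1 probe set gave -0.18 (adjusted p = 0.337). With the 4 gut-bearing BALB controls left out, Cx3cr1 gave -0.41 (adjusted p = 0.19) and Treml4 -0.44 (adjusted p = 0.208). With tissue scores as covariates the values were -0.04 (adjusted p = 0.963) and -0.45 (adjusted p = 0.342).

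Over both genotypes the strain difference passed for 5 of the 8 genes, all lower in BALB, where 23.7% of all probe sets passed and 11.8% with the lower level in BALB. Treml4 was lower by the most, with -0.91 (adjusted p = 2.31e-07). Cx3cr1 followed with -0.71 (adjusted p = 3.72e-05), Ccl8 with -0.58 (adjusted p = 0.028), Ccr2 with -0.38 (adjusted p = 0.0112) and Plac8 with -0.32 (adjusted p = 0.00679). Only Treml4 passed with the tissue scores as covariates. Without the 4 gut-bearing BALB controls, Cx3cr1, Plac8 and Treml4 passed. Ccl8 did not pass without B6 CF male 1 (adjusted p = 0.061), B6 CF female 3 (0.0538), BALB control male 2 (0.0531) or BALB control female 3 (0.0548). Its call was also lost with trended robust eBayes (0.0658), without B6 control female 1 and male 3 together (0.0535), without the gut-bearing BALB controls (0.112) and with the covariates (0.275). Among CF lungs, BALB minus B6 was -1.21 for Treml4, -0.80 for Cx3cr1 and -0.74 for Ccl8, and near 0 for Ccr2.

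Seen over the 8 genes, the CF minus control difference was above 0 for 7 in B6 (all but Ccl2) and for 8 in BALB, with medians of 0.74 and 0.59. The choice of genes fixes much of this. Every CF array lay above every control array for 1 gene in B6 (Ccl8), as for 1.3% of all probe sets, and for 2 genes in BALB (Ccr2 and Ccl12), as for 1.05%. By the mean of both sexes, Ccl8 and Treml4 led in B6, whereas Ccr2 and Ccl12 led in BALB. Treml4 in B6 did so through the males (2.38), with -0.14 in females.

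Genes that are not among the 8 were taken from 5 lists, on classical monocytes, non-classical monocytes, their growth and migration, other CC chemokines and other CC receptors. In B6 24 of the 80 measured genes were higher in CF and 0 lower, where 3.92% of all genes were higher and 1.5% lower. At an unadjusted p under 0.05 in limma, 38 were higher and 3 lower. In BALB 21 of the 80 were higher and 6 lower, where 2.87% of all genes were higher and 2.66% lower. The unadjusted shares over all genes were 11.5% higher and 7.12% lower in B6, and 8.92% and 10.4% in BALB. The counts moved with the arrays and covariates in the fit. Without B6 CF male 1 the B6 count of higher genes was 13. The BALB count was 4 without the 4 gut-bearing controls and 1 with tissue scores as covariates, and the counts of lower genes were then 2 and 0. Tissue content and group cannot be told apart here, since the gut-bearing arrays are mostly BALB controls. The BALB effect minus the B6 effect passed for 0 genes above 0 and for 6 below, where 0.72% and 1.51% of all genes passed, and for 8 and 15 at an unadjusted p under 0.05 in limma, where 5.99% and 9.86% of all genes passed. The lists were chosen with earlier results of these data known, so their counts are not independent of the choice. They were described by counts and medians, with no set test.

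Of the 16 measured classical monocyte genes, 8 were higher in B6 CF and 5 in BALB CF, and 0 were lower in either (10 and 8 higher and 0 lower at an unadjusted p under 0.05). The list medians were 0.39 and 0.24. The summed signal of the list overlapped between CF and control in both strains. Its median was 14.20 in B6 controls and 14.18 in B6 CF, and 13.90 in BALB controls and 13.97 in BALB CF. Ms4a6b, a membrane gene of the MS4A family, rose by 1.16 (SE 0.11, adjusted p = 6.26e-06) in B6 and 0.80 (SE 0.10, adjusted p = 0.000115) in BALB. Clec4e, the receptor Mincle, rose by 0.76 (adjusted p = 0.0011) in B6 and 0.73 (adjusted p = 0.00102) in BALB. Ccr1, a receptor of CCL3 and CCL5 and a neighbour of Ccr2 on chromosome 9, rose by 1.16 (SE 0.14, adjusted p = 8.49e-05) in BALB. Like Ccr2 it was lower in BALB than in B6 controls (-0.93, adjusted p = 5.86e-05). In B6 Ccr1 rose by 0.58 (adjusted p = 0.031), and the call was lost without CF male 1 or 2, CF female 3, control male 1 or 3, or control female 2 or 3, each left out alone (adjusted p = 0.0521 to 0.105). Of the 20 named BALB calls, that of Ccr1 was the 1 that still passed with the tissue scores as covariates. Ly6c1 and Ly6c2, the defining surface antigen of classical monocytes, share a probe set of several symbols and were not read.

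Of the 19 measured non-classical monocyte genes, 7 were higher in B6 CF and 0 lower (11 and 1 at an unadjusted p under 0.05), while in BALB 4 were higher and 4 lower. The median summed signal of the list was 13.10 in B6 controls (13.04 to 13.14) and 13.20 in B6 CF (13.16 to 13.33). In BALB it was lower in CF, at 13.02 against 13.19 in controls, with overlapping arrays. Such a sum follows its brightest genes, and some listed genes, such as Klf2, are not particular to monocytes. Fcgr4, an activating Fc receptor, rose by 1.40 (SE 0.16, adjusted p = 2.69e-05) in B6, and in BALB the difference was 0.38 (adjusted p = 0.158). Spn, the sialophorin CD43, rose by 1.04 (adjusted p = 6.09e-05) in B6 and 0.56 (adjusted p = 0.00741) in BALB. Itgal, the alpha chain of the integrin LFA-1, rose by 0.82 (adjusted p = 0.000144) and 0.50 (adjusted p = 0.00679). T and natural killer cells also carry Spn and Itgal. Nr4a1, the nuclear receptor on which non-classical monocytes depend, rose in B6 by 1.23 (SE 0.22, adjusted p = 0.00246) and fell in BALB (-0.92, SE 0.21, adjusted p = 0.0131). Klf2, a zinc finger factor of quiescent leukocytes and endothelium, fell in BALB by 0.87 (adjusted p = 0.00015), and Cebpb, a factor of myeloid differentiation, by 0.54 (adjusted p = 0.00104). Without the 4 gut-bearing controls, Klf2 still passed in BALB (-0.82, adjusted p = 0.0482), while Nr4a1 (-0.75, adjusted p = 0.302), Cebpb (-0.40, adjusted p = 0.189), Spn (0.41, adjusted p = 0.384) and Itgal (0.32, adjusted p = 0.4) did not. The sex difference of the CF effect in B6 passed for 5 of these 19 genes, all with the smaller effect in females, where 1.34% of all genes did so. Adgre4, an adhesion receptor of myeloid cells, had a female minus male difference of -2.65 (SE 0.31, adjusted p = 0.000291), close to that of Treml4.

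Of the 19 measured genes of monocyte growth and migration, 6 were higher in B6 CF and 10 in BALB CF, with 0 and 1 lower (10 and 11 higher, 0 and 2 lower at an unadjusted p under 0.05). The median summed signal of the list was 12.07 in B6 controls and 12.34 in B6 CF, and 11.92 in BALB controls and 12.03 in BALB CF. Itga4, the alpha chain of the integrin VLA-4, rose by 0.66 (adjusted p = 0.00551) in B6 and 0.74 (adjusted p = 0.00154) in BALB. Itgb2, the beta chain of the leukocyte integrins, rose by 0.55 (adjusted p = 0.00506) and 0.54 (adjusted p = 0.00348). Csf1r, the receptor of the monocyte growth factor CSF1, rose by 0.31 (adjusted p = 0.00521) in B6, and in BALB its difference was 0.19 (adjusted p = 0.0692). Klf4, a factor of monocyte differentiation that endothelium also expresses, fell in BALB by 0.85 (adjusted p = 0.000424). Itgb2 in B6 did not pass without CF male 1 (0.47, adjusted p = 0.0588). Without the 4 gut-bearing controls the BALB values were 0.61 (adjusted p = 0.155) for Itga4, 0.33 (adjusted p = 0.325) for Itgb2 and -0.75 (adjusted p = 0.0911) for Klf4.

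The other CC chemokines and receptors were counted likewise. Of all genes, 3.92% were higher in CF in B6 and 2.87% in BALB. Of 14 chemokine genes, 2 were higher in B6 CF, while in BALB 1 was higher (Ccl20) and 1 lower (Ccl25). The summed signal of the chemokine list was 10.51 to 10.86 in B6 controls and 11.08 to 11.78 in B6 CF. In BALB it was 10.40 to 10.74 in controls and 10.54 to 11.12 in CF, with overlap. Ccl5, a chemokine of T and natural killer cells, rose in B6 by 2.40 (adjusted p = 1.12e-05), and in BALB the difference was 0.17 (adjusted p = 0.783). Ccl11, the eotaxin gene between Ccl7 and Ccl12, differed by 0.18 (adjusted p = 0.613) in B6 and -0.03 (adjusted p = 0.96) in BALB. Ccl25, a chemokine of small intestine and thymus, fell in BALB by 0.88 (adjusted p = 0.00486). Its second probe set gave 0.08, and gut transcripts were highest in BALB controls. Of 13 receptor genes 2 were higher in each strain and 0 lower (at an unadjusted p under 0.05, 2 lower in B6 and 1 in BALB). Ccr6, a receptor of B cells and some T cells, rose in BALB by 0.81 (adjusted p = 0.000304). The neighbours of Ccr2 on chromosome 9 were not alike, since Ccr3 differed by 0.01 in both strains (adjusted p = 0.951 and 0.962) and Ccrl2 by 0.01 and 0.24 (adjusted p = 0.988 and 0.149). Cx3cl1, the ligand of CX3CR1, differed by -0.07 (adjusted p = 0.787) in B6 and -0.21 (adjusted p = 0.191) in BALB.

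Markers of other leukocytes were also counted at an adjusted p under 0.05 in limma. Of all genes, 3.92% were higher and 1.5% lower in B6, and 2.87% and 2.66% in BALB. The CF effect in BALB passed for 2217 probe sets, and for 43 with tissue scores as covariates. The BALB counts below are from the fit without these scores and carry that limit. T-cell genes were higher in CF for 12 of 14 in B6 and 6 of 14 in BALB. Natural killer genes were higher for 8 of 12 and 2 of 12, neutrophil genes for 7 of 15 and 6 of 15, and B-cell genes for 2 of 13 and 11 of 13. The T-cell list summed to 8.69 to 9.23 in B6 controls, 9.59 to 10.02 in B6 CF, 8.56 to 9.51 in BALB controls and 9.18 to 9.78 in BALB CF. The neutrophil list summed to 11.16 to 12.30 and 12.13 to 12.80 in B6, and to 10.90 to 11.72 and 11.92 to 12.82 in BALB, each as controls and then CF. Interstitial macrophage genes were higher for 6 of 15 in B6, and in BALB 1 was higher and 1 lower. Alveolar macrophage genes were higher for 1 of 19 in B6 and 0 of 19 in BALB, and lower for 0 in both (in limma at an unadjusted p under 0.05, 8 and 6 higher, 0 and 1 lower). Their list summed to 12.39 to 12.73 in B6 controls and 12.62 to 13.16 in B6 CF. Dendritic cell genes were higher for 1 of 14 (Ccr7) and lower for 1 (Cd209a) in B6, and higher for 3 of 14 in BALB. Of 8 plasmacytoid dendritic cell genes 0 passed in either strain (1 higher in BALB at an unadjusted p under 0.05 in limma). Of 6 red blood cell genes and 8 platelet genes, 0 passed in either strain, with 1 platelet gene lower in BALB at an unadjusted p under 0.05. The part of each cell type in the levels of the 8 genes was not tested.

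**Figure D5:**
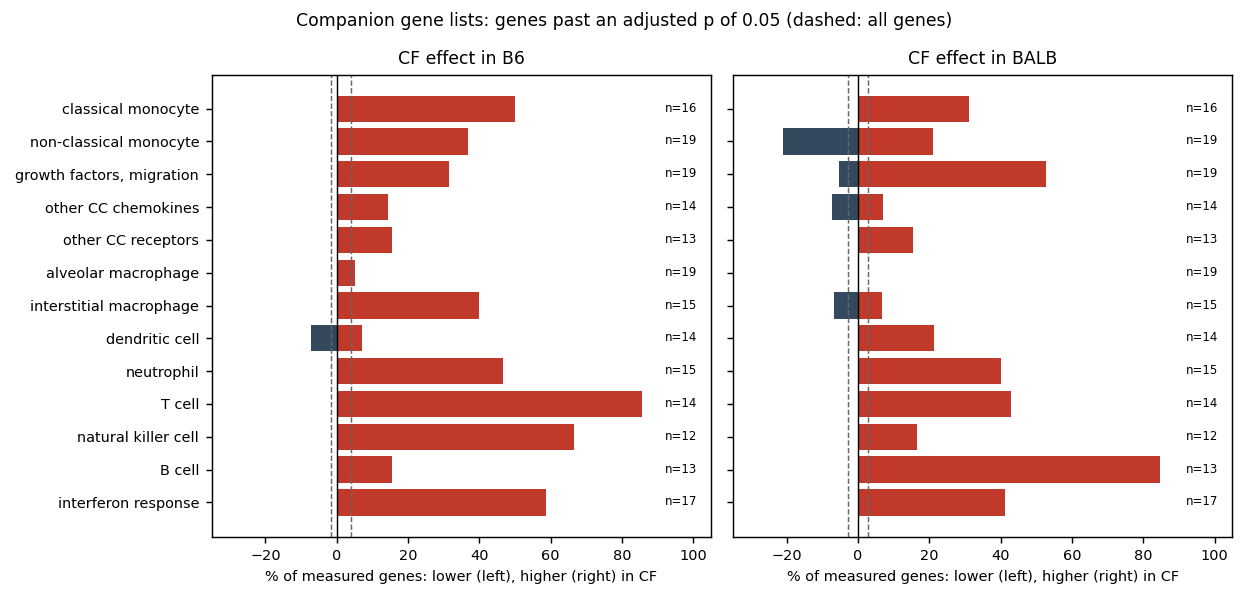
Share of each list's measured genes (n at the right) that were higher (red, right of 0) or lower (dark, left of 0) in CF at an adjusted p under 0.05, in B6 (left panel) and BALB (right panel), with dashed lines at the share over all genes. In this fit without tissue scores, T-cell genes lead in B6 with 12 of 14 higher and B-cell genes in BALB with 11 of 13 higher.

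The genes whose signal most resembled each of the 8 over the 23 arrays, after strain means were subtracted, are given as a description. For Ccr2 these were Ptprc, the pan-leukocyte gene CD45, with r = 0.90, then Apobec1, Cd52, Evi2a, Apobr and Irf4. Ccl8 went with Ms4a6d and the interferon-induced GTPase genes Igtp (r = 0.90) and Irgm2 (r = 0.88). Ccl12 went with Parp9 (r = 0.91), Irgm1 (r = 0.88) and Stat2 (r = 0.88), the last a factor of interferon signalling. Cx3cr1 went with Itgal (r = 0.95), and Treml4 with Ptk2b (r = 0.92), Adgre4 (r = 0.92) and Spn (r = 0.91). Plac8 went with Rap1gap2 (r = 0.89) and Samhd1 (r = 0.88). The closest genes to Ccl2 and Ccl7 were looser, H2-Ea with r = 0.76 and Rabac1 with r = 0.78. Within groups, Ccr2 went with Cx3cr1 (r = 0.66) and Treml4 (r = 0.62), and Ccl8 with Plac8 (r = 0.61). All these points share the same 23 arrays and their tissue content.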

How the data were processed

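Biotin-labelled total RNA of the whole right lung was measured on 23 arrays, per the labels. The deposited values were taken as log2 signals, a scale inferred from their range and spread. How the authors summarised and normalized them is not given in the sources used here. From 45101 probe sets, 64 control probe sets were left out. Of the others, 34945 had 1 gene symbol in the platform annotation, 932 several and 9160 none. A gene was read by its probe set of highest mean.

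limma 3.58.1 in R 4.3.3 (lmFit, eBayes) fitted the 8 group means of strain, sex and genotype over 45037 probe sets, with 15 residual degrees of freedom and p-values adjusted by Benjamini-Hochberg. The fit was tested on simulated data. No 2 columns were identical, and array correlations were 0.971 to 0.996. The members and lists were chosen with earlier results of these data known. Named genes were all 8 members, the up to 4 genes of lowest p per list and comparison, a set of chemokine and monocyte genes always named, and the 6 genes most correlated with each member. Alternatives were quantile normalization, median centring, a filter on dim probe sets, trended robust eBayes, the replicate number as a block, tissue scores as covariates, other probe sets, single strains, and leaving out each array. Leaving out the arrays with foreign tissue together was added after the data were seen.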

Additional observations from a re-analysis of the deposited data

Results flagged for a closer look

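Under the same CF minus control contrast, effects differed between the sexes in B6 by a test of the difference itself (female effect minus male effect, limma, adjusted p under 0.05). Among the 8 genes these were Plac8 (-2.22) and Treml4 (-2.52). Among the other monocyte genes they were Adgre4 (-2.65), Nr4a1 (-2.63), Fcgr4 (-1.45), Spn (-1.37), Ms4a4c (-1.22), Ms4a6b (-1.12), Itga4 (-1.08), Itgal (-1.05), Ccl4 (-0.72) and Csf1r (-0.61). In each of these the effect was the smaller one in females. Ackr2, a decoy receptor of CC chemokines, went the other way (0.76, adjusted p = 0.0233). All rest on 2 CF males.

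Effects differed between the strains (BALB effect minus B6 effect, adjusted p from limma) for Ccl5 (-2.23, adjusted p = 0.00117), Nr4a1 (-2.15, adjusted p = 0.000853), Klf2 (-1.35, adjusted p = 0.000204), Klf4 (-1.20, adjusted p = 0.00129), Fcgr4 (-1.02, adjusted p = 0.013) and Cebpb (-0.78, adjusted p = 0.00244). The strain difference of the CF effect passed for 1142 probe sets, and for 30 with tissue scores as covariates. The calls by strain above come from the fit without these scores. No group had the 4 arrays that the search for single outlying arrays needs.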

How the results depend on the processing

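Main counts of probe sets past the threshold were 2121 (CF effect in B6), 2217 (CF effect in BALB), 1142 (strain difference of the CF effect), 7016 and 10692 (strain difference in controls and over both genotypes), 1094 (sex difference in controls), 788 and 8 (sex difference of the CF effect in B6 and BALB). With tissue scores as covariates they were 1218, 43, 30, 1856 and 5205 for the first 5, and 0 for the last. The genes of the 5 lists were then 13 higher in B6 and 1 higher and 0 lower in BALB, and 0 and 1 of the 8 genes passed for strain in controls and over both genotypes. Without the 4 gut-bearing BALB controls the counts were 198 (CF effect in BALB), 578 (its strain difference), 3787 (strain in controls) and 124 (sex in controls). List genes in BALB were 4 higher and 2 lower, and 0, 3 and 0 of the 8 genes passed for strain in controls, strain over both genotypes and sex in controls. Without 2 B6 controls bearing squamous and muscle transcripts, the BALB sex difference passed for 50 probe sets, with trended robust eBayes for 13, and with BALB arrays alone for 24, where the CF effect in BALB passed for 1406. With B6 arrays alone 1 list gene was lower in B6. The dim filter, which removes Ccl7, Ccl12 and Treml4, left 1 of the 8 genes for sex in controls and 1 for the sex difference in B6.

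Leaving out each array in turn gave 852 to 2329 probe sets for B6 (lowest without CF male 1), 1368 to 2851 for BALB, 591 to 1568 for their difference, 5898 to 7309 and 9580 to 10627 for strain, 477 to 1772 for sex in controls, 245 to 1183 for the sex difference in B6 and 0 to 100 in BALB. List genes ranged from 13 to 27 higher and 0 to 1 lower in B6, and from 17 to 24 and 5 to 7 in BALB. Of the 8 genes, 3 to 3 and 4 to 5 passed for strain, 2 to 4 for sex in controls, 2 to 3 for the sex difference in B6 and 0 to 0 in BALB.

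Signs turned for Cx3cr1 in BALB males with covariates (-0.055) and, by the second probe set, for Ackr4 in B6 (0.14) and Ccl25 (0.085) and Cx3cl1 (0.070) in BALB. A further 64 sign changes lay within 1 SE of 0 and passed in neither fit. The causes were not tested. Replicate numbers did not pair arrays: 3 of 33 same-numbered pairs correlated over 0.1. In 25 of 66 comparisons of an array with another group, the array of the same number correlated best. Each array entered several of these comparisons. With the replicate block 2081 and 2173 probe sets passed for B6 and BALB, and Ccr2 passed for sex in controls (adjusted p = 0.0491, against 0.00805 to 0.0491 over the alternatives in which it passed).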
